A study of Mus musculus with 66 samples.

Results

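The Hox genes described here are the 39 mouse genes whose symbol reads Hoxa, Hoxb, Hoxc or Hoxd followed by a number, out of 45706 gene identifiers measured in every library. They were picked out by symbol alone, and all 39 were found. On GRCm38 the 11 Hoxa genes span chr6:52155367-52260880 on the minus strand. The 10 Hoxb genes span chr11:96194316-96368254, the 9 Hoxc genes span chr15:102921131-103036856 and the 9 Hoxd genes span chr2:74668225-74765142, all on the plus strand. A gene's number gives its paralogue group: genes of the same number in different clusters descend from one ancestral gene.

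Hox genes encode homeodomain transcription factors that give cells along the head-to-tail axis their regional identity. Within a cluster the order of the genes along the chromosome matches the order of their expression along the body, so that low-numbered genes reach forward into the hindbrain and high-numbered genes are used only towards the tail. Neurons of the adult hindbrain and spinal cord keep part of this pattern, while the forebrain and midbrain form without it.

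RNA was sequenced from 66 libraries of mice carrying spontaneous alleles of Rorb, a nuclear receptor gene needed by a class of spinal interneurons, and of 2 wild-type strains. The question addressed here is how the Hox genes were distributed between spinal cord and brain, and whether their levels differed with the Rorb allele or the strain. Brain hemi-sections (brains cut along the midline) and whole spinal cords flushed from the vertebral column came from the same mice, aged 7.9 to 9.6 weeks. Cortex, hippocampus and cerebellum came from mice of 7.0 weeks.

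Brain and cord were taken from wild-type C57BL/6J (n = 3) and from homozygous H1/H1 mice (n = 3), whose h1 allele, a duplication at the start of Rorb, arose on that strain. The h2 and h3 alleles (H2/H2 and H3/H3, n = 4 each) arose on an albino C57BL/6 line, B6(Cg)-Tyr c-2J/J, and the change in their DNA was not identified. The h4 allele (H4/H4, n = 4) is a premature stop in Rorb that arose on B6.129S7-Il1r1 tm1Imx/J, and whether the Il1r1 allele of that strain was still carried is not stated. Wild-type DBA/1J mice (n = 3) were the controls of H5/H5 (n = 3), in which h5 removes the start codon of the Rorb1 isoform on the DBA/1J strain. The dissected regions came only from DBA/1J and H5/H5 (n = 3 for each region). No allele was represented by more than one mutant line, so an allele cannot be told apart from other differences fixed in its line. Both sexes were present in every group.

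Totals ran from 32889755 to 59120536 estimated gene counts per library, with a median of 42391893. Most marker genes fitted the tissue labels, with the cortical gene Tbr1 at a mean of 0.130 TPM in cord against 31.7 TPM in brain, and the glycine transporter gene Slc6a5 (hindbrain and cord) at 153 TPM in cord against 15.3 TPM in brain. Single libraries stood apart: the hemi-section DBA/1J replicate 1 held 0.16 TPM of the cerebellar granule cell gene Gabra6 where the other 23 held 42.9 to 114 TPM, and the cord H5/H5 replicate 3 held 12.5 TPM of the meningeal gene Lum where the other 23 held 0.89 to 1.75 TPM. The cord H4/H4 replicate 4 held 94.1 TPM of Slc6a5 where the other 23 held 144.3 to 166.5 TPM. Among hemi-sections the skeletal muscle genes Acta1, Myh4, Ckm and Tnnt3 had means of 5.15, 0.39, 0.47 and 0.96 TPM. Their highest hemi-sections held 23.95, 6.71, 10.27 and 13.71 TPM. The hemi-section H3/H3 replicate 1 held almost no Hox RNA, as described below. No 2 libraries of a group held identical values.

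Promoter windows of 300 bases, from 250 before to 50 after a transcription start on the gene's own strand (RefSeq, GRCm38.p6), were on hand for 22 of the 39 genes. The windows below are shown because their genes mark the pattern that follows: Hoxa5 was present in brain and cord, Hoxb8 was the most abundant Hox gene of the cord, Hoxd10 was abundant in cord and at 0 in every hemi-section, and Hoxd12, a neighbour of Hoxd10, was nearly absent from both. Capitals mark AGGTCA (a half-site read by retinoid and ROR receptors), TTTATG (a core read by Cdx factors) and TGATNNAT (a joint site of Hox and Pbx proteins), searched on both strands; no 2 matches overlapped in these windows.
Hoxa5, chr6:52204538-52204837, minus strand: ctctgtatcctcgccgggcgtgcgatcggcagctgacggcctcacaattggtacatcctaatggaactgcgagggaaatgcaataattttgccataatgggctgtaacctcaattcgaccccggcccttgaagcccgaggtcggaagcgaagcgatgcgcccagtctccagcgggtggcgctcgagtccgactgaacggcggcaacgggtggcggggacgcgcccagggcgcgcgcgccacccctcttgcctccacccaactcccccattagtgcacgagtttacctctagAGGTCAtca
Hoxb8, chr11:96281655-96281954, plus strand: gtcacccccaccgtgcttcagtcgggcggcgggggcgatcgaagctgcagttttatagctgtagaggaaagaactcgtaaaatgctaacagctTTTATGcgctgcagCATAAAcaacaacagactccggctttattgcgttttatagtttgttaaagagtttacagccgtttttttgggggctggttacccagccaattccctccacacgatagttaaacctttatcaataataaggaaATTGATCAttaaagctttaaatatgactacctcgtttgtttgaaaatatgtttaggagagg
Hoxd10, chr2:74691641-74691940, plus strand: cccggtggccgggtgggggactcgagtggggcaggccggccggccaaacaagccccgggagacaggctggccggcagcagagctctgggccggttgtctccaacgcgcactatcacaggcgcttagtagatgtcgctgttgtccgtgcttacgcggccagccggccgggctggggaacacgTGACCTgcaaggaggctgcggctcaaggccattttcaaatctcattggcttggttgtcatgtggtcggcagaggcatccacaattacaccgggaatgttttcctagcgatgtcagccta
Hoxd12, chr2:74674763-74675062, plus strand: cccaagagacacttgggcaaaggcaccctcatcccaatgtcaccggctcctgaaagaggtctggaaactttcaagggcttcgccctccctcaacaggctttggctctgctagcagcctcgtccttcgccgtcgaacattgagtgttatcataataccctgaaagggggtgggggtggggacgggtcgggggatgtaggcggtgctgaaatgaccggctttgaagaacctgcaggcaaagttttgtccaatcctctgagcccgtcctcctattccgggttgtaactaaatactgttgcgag

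AGGTCA occurred in 7 of the 24 Hox windows (Hoxa5, Hoxb4, Hoxc4, Hoxd3, Hoxd4, Hoxd8 and Hoxd10) and in 16.3% of 32817 windows of the genome. TTTATG occurred in 5 Hox windows (Hoxa7, Hoxb8, Hoxd3, Hoxd4 and Hoxd11) against 11.9% of all windows, and TGATNNAT in 4 (Hoxa2, Hoxb1, Hoxb8 and Hoxd11) against 8.86%. The median Hox window held 14.5 CpG dinucleotides against 7.0 in the median of all windows. These matches are letters in a window and were not tested for binding.

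In the spinal cord the Hox genes were expressed across nearly the whole numbered series, rising from group 1 to a peak at group 8 and falling again to group 13. Expression is given as TPM, a share of all transcripts that corrects for transcript length and so lets genes be compared. Summed over the clusters, the 24-cord means were 2.26 TPM for group 1, 11.6 for group 2, 33.6 for group 3, 37.8 for group 4, 54.5 for group 5, 71.8 for group 6, 88.0 for group 7 and 168 for group 8. They were 127 TPM for group 9, 97.4 for group 10, 12.8 for group 11, 3.51 for group 12 and 2.20 for group 13. A mean of at least 0.1 TPM was reached by 37 of 39 genes in cord, the exceptions being Hoxb1 and Hoxd12, and 35 genes had a count above 0 in all 24 cords.

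**Figure D1:**
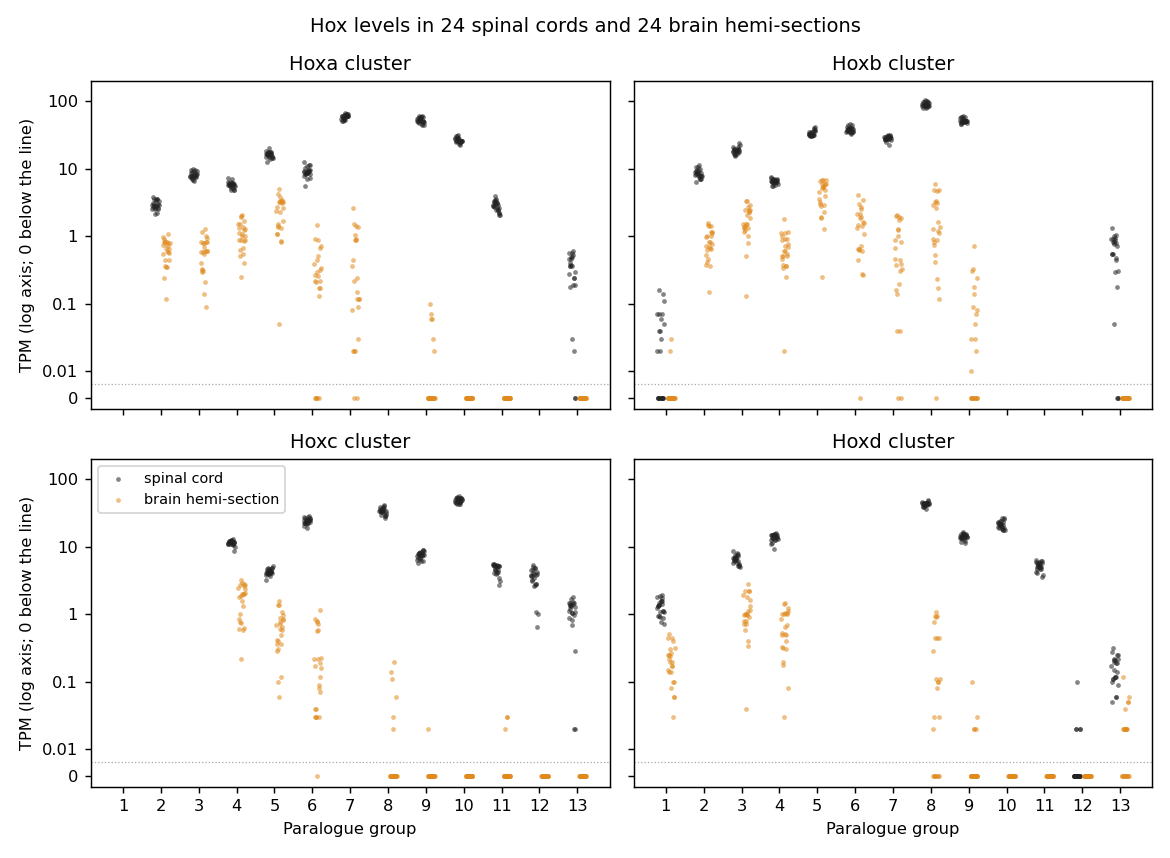
TPM of 38 Hox genes in each of 24 spinal cords (black) and 24 brain hemi-sections (orange) against paralogue group, with 1 panel per cluster and a log axis on which 0 is drawn below the dotted line. Cord values peak near Hoxb8 with a mean of 90.3 TPM, and from group 10 onwards the hemi-sections lie at 0 except for a few counts of Hoxc11 and Hoxd13.

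The most abundant member was Hoxb8, whose loss in mice disturbs spinal sensory circuits and grooming, at 78.8 TPM in the lowest cord, 89.0 in the median and 105 in the highest. Hoxa7 led its cluster at 51.2, 59.8 and 67.3 TPM (lowest, median and highest cord). Hoxc10, which marks the lumbar cord that supplies the hindlimb, led Hoxc at 43.1, 49.2 and 56.0 TPM. Hoxd8 led Hoxd at 36.5, 43.9 and 49.5 TPM. The ranges of Hoxc10 and Hoxd8 overlapped among libraries, as did those of Hoxa7 and Hoxc10, so their order is of means alone, while the lowest Hoxb8 cord lay above the highest Hoxa7 cord.

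Each cluster also held members that the adult cord barely used, most of them at the tail end of the numbering. Hoxa13 had 0, 0.365 and 0.60 TPM in the lowest, median and highest cord, and Hoxc13 0.02, 1.26 and 1.79 TPM. Hoxb1, the rhombomere 4 gene of the embryonic hindbrain, had a mean of 0.0367 TPM with counts in 13 of 24 cords. Hoxd12 had 9 counts in all over 5 cords and 0 in the other 19, which allows up to 3 counts in each of those libraries. The Hox13 genes, known for ending the growth of the body axis at the tail bud, had means of 0.322 (Hoxa13), 0.601 (Hoxb13), 1.12 (Hoxc13) and 0.164 TPM (Hoxd13).

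Forward of the peak, Hoxa5, needed for the phrenic motor neurons of breathing, had a mean of 16.3 ± 1.75 TPM (SD, n = 24 here and below), and Hoxc6, a gene of the forelimb level, had 24.3 ± 2.36 TPM. Hoxc9, which sets thoracic motor neuron identity, had 7.55 ± 0.90 TPM, below its paralogues Hoxa9 (53.1 ± 4.90), Hoxb9 (52.1 ± 3.88) and Hoxd9 (14.2 ± 1.29). Hoxa9 and Hoxb9 thus differed by less than their SD, and Hoxc9 and Hoxd9 lay below both. Hoxa2 and Hoxb2, both hindbrain patterning genes, had 2.97 ± 0.45 and 8.61 ± 1.22 TPM.

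Between cords the abundant Hox genes varied little. The 18 members with a mean of at least 10 TPM had coefficients of variation of 6.21% to 12.3% over the 24 cords (median 9.12%), beside a median of 7.87% over all 9510 genes at that level. The sum over all 39 genes ran from 649 to 778 TPM, a 1.20-fold range across 7 genotypes. Some members overlap in position, by whole spans with introns included, which need not mean shared transcript sequence. On GRCm38 the span of Hoxa3 overlaps those of Hoxa4, Hoxa5 and Hoxa6. Hoxb3 overlaps Hoxb4, Hoxd3 overlaps Hoxd4 and Hoxd10 overlaps Hoxd11, as RefSeq gives them. Counts that were not whole, and so may have been shared with another gene, occurred for Hoxd3 and Hoxd4 in 41 of 66 libraries, Hoxd11 in 24, Hoxa2 and Hoxa3 in 22, and Hoxc5, Hoxc10 and Hoxd10 in 2, and the levels of these genes are less certain.

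Hoxa13, Hoxb13, Hoxc12 and Hoxc13, all low in cord, were more uneven, and the same few cords were low in each. Hoxd13 did not share this, with 0.09 to 0.25 TPM in the 4 cords named below and 0.05 to 0.32 TPM in the other 20. Hoxc13 had 0.98, 0.02 and 1.08 TPM in DBA/1J replicates 1 to 3 and 1.29, 0.02 and 0.29 TPM in H5/H5, where the 18 cords of the C57BL/6J-related groups had 0.70 to 1.79 TPM. Hoxc12 had 3.84, 1.10 and 3.92 TPM in DBA/1J and 4.23, 0.65 and 1.03 TPM in H5/H5, against 2.60 to 5.31 TPM in those 18 cords. DBA/1J replicate 2 and H5/H5 replicates 2 and 3 were thus low for both genes, and the other 3 cords of that strain were not.

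The same 3 cords had 0 counts of Hoxb13 and at most 1 count of Hoxa13, where the other 3 cords of the DBA/1J strain had 8 to 33 counts of Hoxb13 and 10 to 15 of Hoxa13. A further cord, H3/H3 replicate 1, had 3 counts of Hoxb13 and 2 of Hoxa13 beside 15 to 40 and 11 to 18 in the other H3/H3 cords. In group 10 the ranges of the 4 cords and the other 20 overlapped: Hoxc10 had 48.0 to 51.7 TPM in them against 43.1 to 56.0 TPM in the other 20, and Hoxa10 had 25.5 to 31.3 TPM against 22.8 to 30.9 TPM. Hoxd10 had 17.7 to 24.2 TPM against 18.0 to 26.8 TPM, so that its lowest cord was one of the 4. In group 11, Hoxc11 was lower in the 4 cords without overlap (at most 3.92 TPM against 4.04 to 5.63 TPM), while Hoxd11 (3.55 to 5.01 against 4.15 to 6.31 TPM) and Hoxa11 (2.10 to 3.29 against 2.22 to 4.02 TPM) overlapped. Without the 4 cords the coefficient of variation over cords fell from 42.1% to 19.8% for Hoxc13 and from 63.0% to 40.7% for Hoxb13. Hotair, the noncoding RNA between Hoxc11 and Hoxc12, had 1.27, 1.38 and 1.39 TPM in the 3 DBA/1J-strain cords against 1.48 to 3.36 TPM in the 20, and 2.34 TPM in H3/H3 replicate 1. These genes and cords were picked out after their values were seen, and how far each cord was recovered at its tail end was not tested.

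**Figure D2:**
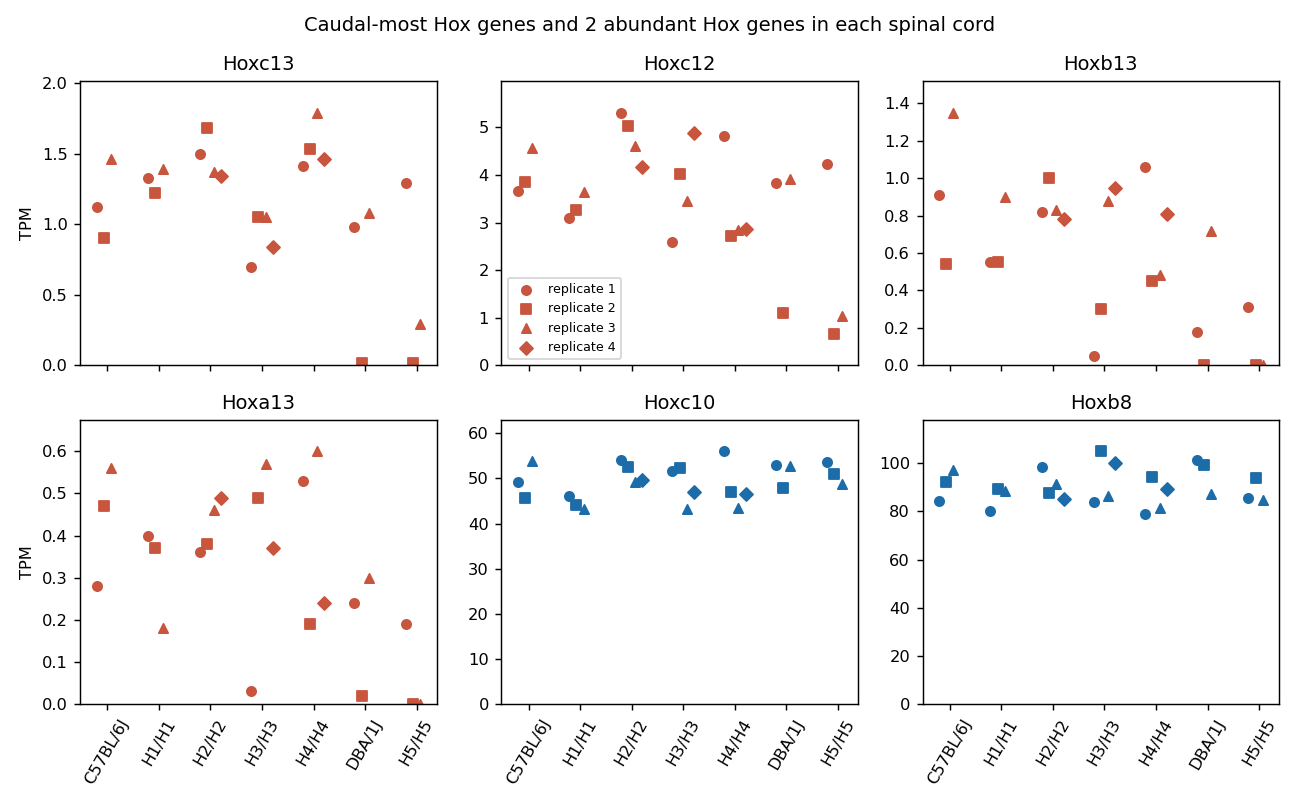
TPM in each spinal cord by genotype for Hoxc13, Hoxc12, Hoxb13 and Hoxa13 (red) and for Hoxc10 and Hoxb8 (blue), with the replicate given by the symbol. DBA/1J replicate 2 and H5/H5 replicates 2 and 3 are the lowest 3 cords for Hoxc13, at 0.02, 0.02 and 0.29 TPM, but lie within the other cords for Hoxc10 and Hoxb8.

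Against this, the brain hemi-sections held a truncated series: genes of groups 1 to 5 kept between 4.99% (Hoxd4) and 21.4% (Hoxa2) of their cord level, genes of groups 6 to 8 kept at most 4.00%, and genes of groups 9 to 12 were close to or at 0. The hemi-section mean as a percentage of the cord mean was 21.4% for Hoxa2, 7.54% for Hoxa3, 19.0% for Hoxa4 and 14.7% for Hoxa5. Along the same cluster it then dropped to 3.95% for Hoxa6, 0.894% for Hoxa7 and 0.0267% for Hoxa9, and Hoxa10, Hoxa11 and Hoxa13 had no count in any of the 24 hemi-sections. Up to Hoxa5 the percentage did not follow the numbering, and from Hoxa6 onwards it fell with it.

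In the other clusters too the percentage was lower from group 6 onwards than up to group 5, except for the low Hoxd13, while the order within each range varied. In Hoxb it was 9.92% for Hoxb2, 9.58% for Hoxb3, 10.5% for Hoxb4, 12.7% for Hoxb5, 4.00% for Hoxb6, 2.17% for Hoxb8 and 0.185% for Hoxb9. In Hoxc it was 15.2% for Hoxc4, 15.4% for Hoxc5, 1.24% for Hoxc6, 0.0683% for Hoxc8, 0.0106% for Hoxc9 and 0.0701% for Hoxc11. In Hoxd it was 18.3% for Hoxd3, 4.99% for Hoxd4, 0.659% for Hoxd8 and 0.0555% for Hoxd9. Within group 8 the hemi-section share therefore ran from 0.0683% (Hoxc8) to 2.17% (Hoxb8), and within group 5 only from 12.7% to 15.4%. For comparison, Slc6a5 stood at 9.96% and the peripherin gene Prph, a motor and sensory neuron gene, at 8.09%. The other hindbrain and cord markers listed ran from 1.57% (Mnx1) through 13.5% (Slc5a7) to 168% (Isl1, which was higher in brain).

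**Figure D3:**
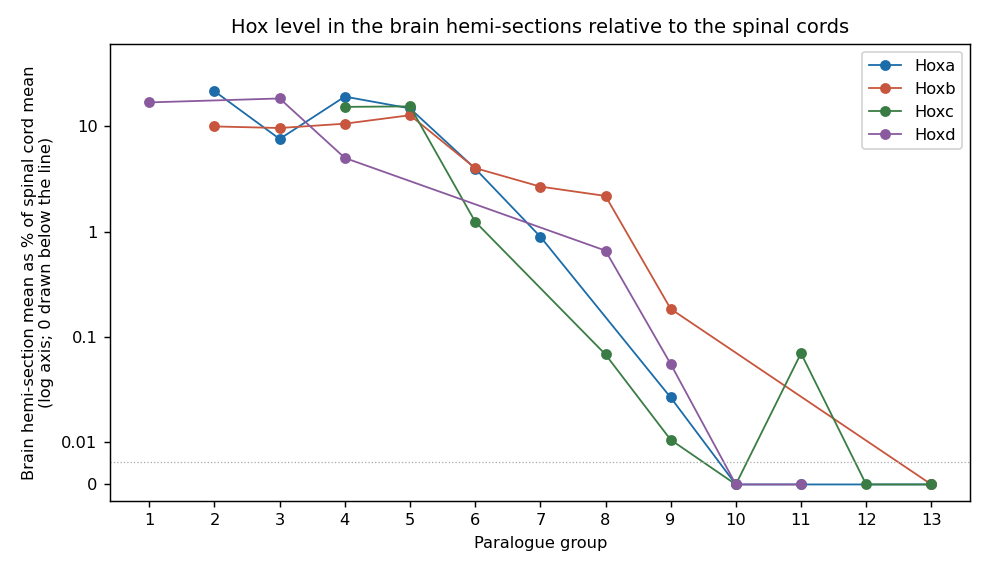
Mean TPM in 24 brain hemi-sections as a percentage of the mean in 24 spinal cords, by paralogue group and cluster, on a log axis with 0 drawn below the dotted line; Hoxb1, Hoxd12 and Hoxd13, at under 0.2 TPM in cord, and 1 member not reported here are left out. The percentage is 12.7% to 15.4% at group 5 and falls to between 0.0106% and 0.185% at group 9.

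Of the 39 genes, 10 had 0 counts in all 24 hemi-sections: Hoxa10, Hoxa11, Hoxa13, Hoxb13, Hoxc10, Hoxc12, Hoxc13, Hoxd10, Hoxd11 and Hoxd12. Taking 3 counts over the 24 hemi-sections as the limit that a count of 0 allows, Hoxc10 was at least 14803-fold higher in cord relative to the library totals, Hoxa10 at least 7446-fold and Hoxd10 at least 6127-fold. The bound was 451-fold for Hoxc13 and 114-fold for Hoxa13, but only 2.8-fold for Hoxd12, with 9 counts in all cords. Hoxc9 had 1 count in all hemi-sections and Hoxc11 had 3, while Hoxd13 had 22 counts there, 12.2% of its low cord level in TPM. Such limits cover counting error only.

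The genotype-by-genotype comparison used edgeR's quasi-likelihood test on estimated counts, with Benjamini-Hochberg adjusted p-values over all genes tested. In C57BL/6J, 36 of the 39 genes had enough counts to be tested and all 36 were called higher in cord at an adjusted p under 0.05, where 56.9% of all 17647 genes tested were called in either direction and 28.3% were called higher in cord. All tested members were likewise called higher in cord in the other genotypes. They numbered 35 in H1/H1 (55.9% of all genes called, 29.1% higher), 36 in H2/H2 (63.2%, 31.5%), 34 in H3/H3 (60.5%, 30.5%), 35 in H4/H4 (64.5%, 32%), 33 in DBA/1J (50.8%, 25.3%) and 33 in H5/H5 (51.3%, 24.5%). Many of these genes passed the count filter through the cord libraries alone, so that those could not but differ, and the calls are no support beyond the levels above. In bulk tissue, fewer cells of a type and less RNA per cell cannot be told apart.

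Among genes with counts on both sides, Hoxb8 had 1.28, 2.92 and 0.92 TPM in the 3 C57BL/6J hemi-sections and 84.2, 92.4 and 97.1 TPM in the cords of the same mice. The log2 fold change of cord over brain was 5.97 (SE 0.18, adjusted p = 1.69e-11 by edgeR). Hoxa2 had 0.98, 0.74 and 0.54 TPM in those hemi-sections and 2.58, 2.90 and 3.82 TPM in cord, a log2 fold change of 2.08 (SE 0.27, adjusted p = 1.67e-05 by edgeR). Neither gene overlapped between the tissues.

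Hoxa7 had 0.08, 0.37 and 0.02 TPM against 54.5, 59.8 and 61.1 TPM, and Hoxd8 had 0, 0.29 and 0.02 TPM against 46.0, 44.5 and 43.8 TPM. Both passed the count filter through the cord alone, with 13 and 11 counts over the 3 hemi-sections, so no test is given for them. Hoxb5 had 3.57, 4.58 and 3.23 TPM against 33.0, 32.6 and 34.8 TPM, a log2 fold change of 3.25 (SE 0.09). Hoxb5 was the most abundant Hox gene of the hemi-sections, with a mean of 4.30 ± 1.93 TPM (SD, n = 24).

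Unlike the cords, the hemi-sections differed widely from one another in Hox RNA. Summed over groups 4 to 8 the 24 hemi-sections ran from 1.01 to 37.6 TPM, a 37.2-fold range, against a 1.20-fold range in cord. Summed over groups 1 to 3 they ran from 0.73 to 8.59 TPM. The library H3/H3 replicate 1 was the lowest for both, and without it the ranges were 8.01-fold for groups 4 to 8 and 3.37-fold for groups 1 to 3.

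Replicates of a genotype differed as much as genotypes did. The sum over groups 4 to 8 was 16.8, 18.9 and 10.9 TPM in C57BL/6J, 8.97, 34.7 and 8.96 TPM in H1/H1 and 6.95, 6.96, 37.6 and 25.2 TPM in H2/H2. It was 1.01, 24.9, 21.1 and 30.3 TPM in H3/H3 and 24.6, 6.94, 9.64 and 4.69 TPM in H4/H4. DBA/1J had 19.5, 17.8 and 29.3 TPM and H5/H5 11.6, 19.7 and 20.1 TPM. H1/H1, H2/H2, H3/H3 and H4/H4 each held libraries both below and above all 3 C57BL/6J hemi-sections. In H2/H2 the low replicates 1 and 2 came from mice of 7.9 weeks and the high replicates 3 and 4 from mice of 9.4 weeks. In H3/H3 the oldest mouse, replicate 1 at 9.6 weeks, had the lowest sum. The part of age was not tested.

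Slc6a5 was high in many of the libraries with high sums. It was 21.5 TPM in H2/H2 replicate 3, 20.5 TPM in H3/H3 replicate 4 and 19.6 TPM in H1/H1 replicate 2, libraries that were high in Hox RNA, and 5.43 TPM in H3/H3 replicate 1 and 5.21 TPM in H4/H4 replicate 4, the libraries lowest for groups 4 to 8. The order was not the same throughout, since the highest Slc6a5 (21.8 TPM) was in H5/H5 replicate 3, whose sum over groups 4 to 8 was 20.1 TPM. Its range was 4.18-fold, below that of the sum over groups 4 to 8 with or without H3/H3 replicate 1, and below that of groups 1 to 3 only with that library. Of the other hindbrain and cord markers, Prph ran from 1.61 TPM (H3/H3 replicate 1) to 7.12 TPM and Slc5a7, the choline transporter gene of motor neurons, from 4.19 TPM (the same library) to 8.05 TPM. The part that the amount of hindbrain in each section had in the Hox values was not tested.

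The higher-numbered genes were the most uneven. Hoxa2 had 0.12, 0.66 and 1.07 TPM in the lowest, median and highest hemi-section, and its coefficient of variation was 38.3%. Hoxb8 had 0, 1.24 and 5.97 TPM with a coefficient of variation of 89.7%, and Hoxa7 had 0, 0.185 and 2.61 TPM with 127%. Hoxb9, the last gene of its cluster with counts in the hemi-sections, had counts in 14 of the 24, and 0.73 TPM in the highest, H3/H3 replicate 4. That library held 34 of the 112 Hoxb9 counts of all 24 hemi-sections.

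**Figure D4:**
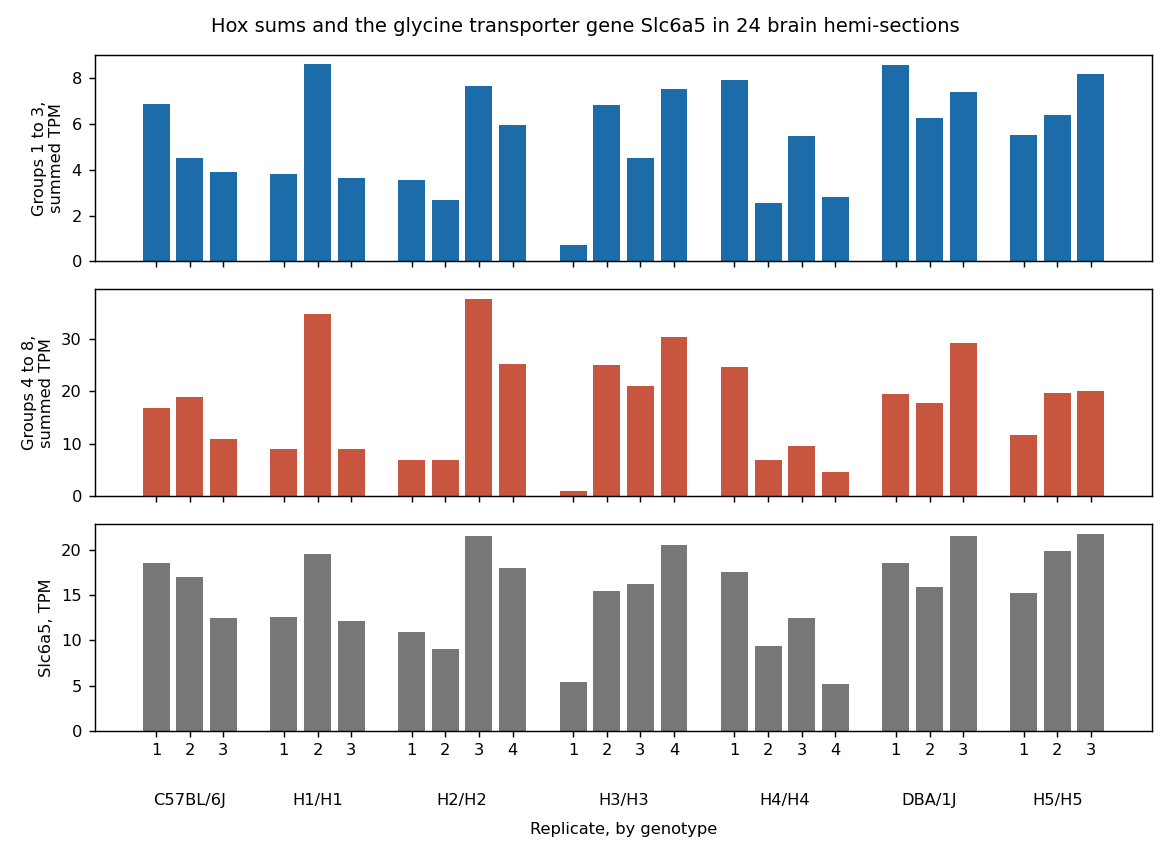
Summed TPM of paralogue groups 1 to 3, summed TPM of groups 4 to 8, and TPM of Slc6a5 in each of 24 brain hemi-sections, as bars by genotype and replicate. H3/H3 replicate 1 has the lowest Hox sums (0.73 and 1.01 TPM), and the 3 libraries with the highest group 4 to 8 sums have 19.6 to 21.5 TPM of Slc6a5.

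The dissected regions held almost no Hox RNA. All 39 genes together summed to 0.05 to 0.24 TPM in the 6 cortex libraries, 0.04 to 0.48 TPM in hippocampus and 0.40 to 1.47 TPM in cerebellum, or 2 to 39 estimated counts per library. No gene reached 0.1 TPM on average in cortex, 1 did in hippocampus and 3 did in cerebellum. No Hox gene passed the count filter in any of the 6 edgeR comparisons between regions, where in DBA/1J 58.1% (cerebellum against cortex), 20.6% (hippocampus against cortex) and 64% (cerebellum against hippocampus) of all genes were called, and in H5/H5 64%, 25.2% and 62%.

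Of the genes over 0.1 TPM in cerebellum, Hoxa2 had 9, 5 and 3 counts in DBA/1J and 0, 4 and 0 in H5/H5, and Hoxb3 had 2, 7 and 2 against 1, 2 and 1. Hoxa2 had no count in any hippocampus library and 2 counts in 1 cortex library. Hoxa7 was the exception in the forebrain, with 8, 1 and 0 counts in DBA/1J hippocampus and 4, 2 and 5 in H5/H5, beside 1 count over all 6 cortex libraries. At these counts a difference between DBA/1J and H5/H5 was not detectable.

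The mutants were compared with wild type in each tissue, H1/H1 to H4/H4 with C57BL/6J and H5/H5 with DBA/1J. C57BL/6J is the strain on which h1 arose but only a relative of those of h2, h3 and h4, so that allele and line cannot be told apart there. No Hox gene was called in any of the 13 comparisons by edgeR at an adjusted p under 0.05, nor by DESeq2. The shares of all genes below are those of edgeR, and those of DESeq2 are not given here. In cord, 0 of 36 tested members were called in H1/H1 (0.289% of all genes tested were called), 0 of 37 in H2/H2 (2.09%), 0 of 37 in H3/H3 (1.01%), 0 of 36 in H4/H4 (1.75%) and 0 of 35 in H5/H5 (0.00581%). At an unadjusted p under 0.05 the numbers were 4, 3, 2, 6 and 1. Over all genes tested they were 1951 of 17309, 2723 of 17464, 2376 of 17512, 2433 of 17427 and 1532 of 17210. With so few genes called at an adjusted p under 0.05, 0 of 36 is also what the background share would give.

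In brain, 15 members were tested in H1/H1, H2/H2, H4/H4 and H5/H5 and 18 in H3/H3, and 0 were called, where 0%, 0.136%, 0.703%, 0% and 0.164% of all genes were called. At an unadjusted p under 0.05 there were 0 in H1/H1, 0 in H2/H2, 1 in H4/H4, 2 in H5/H5 and 3 in H3/H3. Over all genes tested they were, in that order, 745 of 17603, 1311 of 17594, 2349 of 17789, 1003 of 17299 and 1833 of 17688. The 3 in H3/H3 were Hoxa7, Hoxc6 and Hoxd8, the members that passed the count filter in no other brain comparison of 2 groups, so that their count is no support. In cortex, hippocampus and cerebellum of H5/H5 no member could be tested, and 0%, 0.0118% and 0.012% of all genes were called.

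For the 18 abundant members the cord data set close limits. Over the 5 alleles all their 95% intervals lay between a log2 fold change of -0.42 and 0.37, with a median half-width of 0.12 in H1/H1 and 0.17 in H5/H5. Hoxb8 in cord had 84.2, 92.4 and 97.1 TPM in C57BL/6J, 80.0, 89.3 and 88.7 TPM in H1/H1, and 78.8, 94.5, 81.4 and 89.5 TPM in H4/H4. These groups overlapped throughout. In the hemi-sections the intervals of members this abundant in cord ran from -3.18 to 2.54, so that far larger changes were not detectable there. This range leaves out Hoxa7, Hoxc6 and Hoxd8, which passed the count filter in H3/H3 through the group where they were high.

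**Figure D5:**
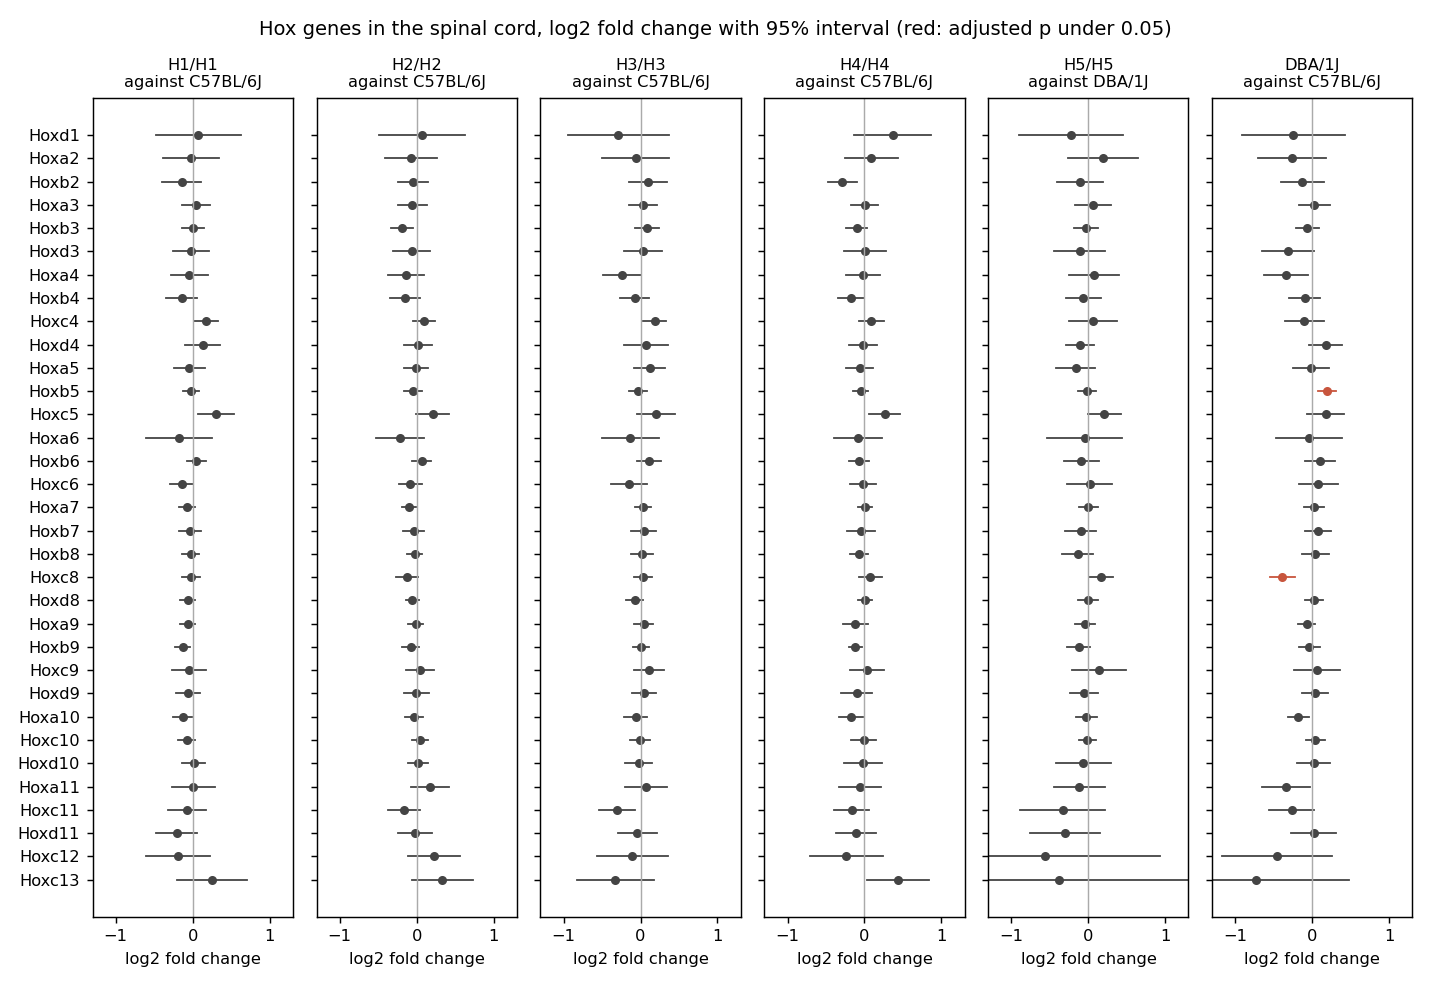
Log2 fold change in spinal cord with 95% interval (edgeR) for the 33 Hox genes with a mean of at least 1 TPM, ordered by paralogue group, for H1/H1 to H4/H4 against C57BL/6J, H5/H5 against DBA/1J, and for DBA/1J against C57BL/6J; 3 of 198 intervals run past the axis. Only Hoxb5 and Hoxc8 in DBA/1J, in red, passed an adjusted p of 0.05.

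In cord the fold changes nearest to a call were small. Hoxb9 was at a log2 fold change of -0.13 in H1/H1 (adjusted p = 0.262 by edgeR) and -0.12 in H4/H4 (adjusted p = 0.179 by edgeR). Hoxb2 in H4/H4, at -0.29 (SE 0.09), had the lowest adjusted p among Hox genes in any mutant comparison (0.137 by edgeR). In the H3/H3 hemi-sections Hoxd8 had 0.11, 0.92, 1.09 and 0.95 TPM against 0, 0.29 and 0.02 TPM in C57BL/6J, but it passed the count filter in brain only in this comparison, through the group where it was high, so no test is given. The H1/H1 to H4/H4 comparisons share the same 3 C57BL/6J libraries, so values that recur among them are not independent.

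A joint test asked whether any of h1 to h4 differed from C57BL/6J within a tissue. In cord 1 of 37 members was called, Hoxc13, beside 4.53% of all 18198 genes tested. In brain 0 of 21 were called by edgeR beside 0.715% of all genes, and 0 by DESeq2. At an unadjusted p under 0.05 by edgeR there was 1 of the 21, beside 1748 of all 18472 genes. The 21 included Hoxa7, Hoxc6 and Hoxd8, which passed the count filter in this joint fit too. Hoxc13 had 1.12, 0.90 and 1.46 TPM in C57BL/6J, 1.33, 1.22 and 1.39 in H1/H1 and 1.50, 1.68, 1.37 and 1.34 in H2/H2. It had 0.70, 1.05, 1.05 and 0.84 TPM in H3/H3 and 1.41, 1.53, 1.79 and 1.46 in H4/H4. H3/H3 lay below H1/H1, H2/H2 and H4/H4 without overlap, and C57BL/6J overlapped with all 4.

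The joint adjusted p for Hoxc13 was 0.031 by edgeR, and no single allele passed against C57BL/6J, the nearest being H4/H4 with a log2 fold change of 0.44 (SE 0.19, adjusted p = 0.312 by edgeR). Without the cord H3/H3 replicate 1, which was low in Hoxb13 and Hoxa13 as well, the joint adjusted p was 0.095 by edgeR. When the DBA/1J and H5/H5 cords entered the same fit it was 0.800. The call was also lost on leaving out C57BL/6J replicate 1, H2/H2 replicate 1 or 2, H3/H3 replicate 4 or H4/H4 replicate 3, with values from 0.050 to 0.076.

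Between the wild-type strains, 2 of 37 tested Hox genes were called in cord, beside 21.3% of all 17318 genes tested, and 1 of 15 in brain, beside 11.2% of all 17368 genes. The share of members called in cord was below the background share. The genes were Hoxb5, a gene of the cervical level, and Hoxc8, which patterns the motor pools of the forelimb level.

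Hoxc8 in cord had 33.6, 38.6 and 36.0 TPM in C57BL/6J and 28.9, 28.3 and 27.0 TPM in DBA/1J. The log2 fold change of DBA/1J over C57BL/6J was -0.39 (SE 0.07, adjusted p = 0.00177 by edgeR). H5/H5, on the DBA/1J strain, had 29.8, 33.5 and 32.3 TPM, and the 18 cords of the C57BL/6J-related groups had 30.2 to 41.6 TPM. The wild-type strains did not overlap, but the H5/H5 cords overlapped with the C57BL/6J-related ones. H5/H5 over DBA/1J was at 0.16 (SE 0.07, adjusted p = 0.557 by edgeR).

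Hoxb5 in cord had 33.0, 32.6 and 34.8 TPM in C57BL/6J and 38.8, 36.2 and 40.7 TPM in DBA/1J, a log2 fold change of 0.19 (SE 0.05, adjusted p = 0.0205 by edgeR). H5/H5 had 37.5, 41.5 and 36.2 TPM, while the 18 C57BL/6J-related cords had 30.5 to 35.4 TPM. All 6 cords of the DBA/1J strain thus lay above all 18 others. With the replicate number as a block the adjusted p was 0.0598 at the same log2 fold change of 0.19. It was 0.0718 without C57BL/6J replicate 2 and 0.0638 without DBA/1J replicate 1 (edgeR).

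In the hemi-sections Hoxb5 had 3.57, 4.58 and 3.23 TPM in C57BL/6J and 5.75, 4.86 and 5.88 TPM in DBA/1J, a log2 fold change of 0.62 (SE 0.15, adjusted p = 0.0258 by edgeR). The median over the 15 tested members was also 0.62, so the difference was not particular to Hoxb5. Members ran from -0.27 (Hoxb4) to 0.93 (Hoxc5). Of them 5 were at an unadjusted p under 0.05 by edgeR, beside 4304 of all 17368 genes. For Hoxb5 the 18 C57BL/6J-related hemi-sections ran from 0.25 to 6.86 TPM and covered all 6 of the DBA/1J strain (4.01 to 6.79 TPM). Slc6a5 was 18.6, 17.0 and 12.5 TPM in the C57BL/6J hemi-sections and 18.6, 15.9 and 21.5 TPM in DBA/1J, and its part in the result was not tested. Without DBA/1J replicate 1, the section nearly without Gabra6, the log2 fold change of Hoxb5 was 0.58 with an adjusted p of 0.0640 by edgeR. It was 0.0771 without C57BL/6J replicate 1, 0.0942 without C57BL/6J replicate 3 and 0.0813 without DBA/1J replicate 3.

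Whether the strain difference itself differed between cord and brain was tested as an interaction. Brain and cord of the same mice entered this fit without pairing. It was called for 0 of 37 members by edgeR and 0 by DESeq2, beside 0.321% of all 18374 genes, with 11 members and 1801 of all genes at an unadjusted p under 0.05 by edgeR. Of these, Hoxa9 and Hoxc8 had 0 counts over the 3 C57BL/6J hemi-sections, Hoxb9 had 1, Hoxd8 had 11 and Hoxa7 had 13, so no size is given for them. Hoxb5, with counts in every library, was at -0.44 on the log2 scale, a lower cord-minus-brain difference in DBA/1J. The other members at that p went the same way: Hoxb2 (-0.95), Hoxa5 (-0.77), Hoxc5 (-0.76), Hoxa3 (-0.65) and Hoxb3 (-0.55). The lowest adjusted p was 0.186 (Hoxb9, edgeR).

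The 10 cluster noncoding RNAs were all higher on average in cord than in hemi-sections. In C57BL/6J 9 were tested and called higher in cord by edgeR, beside 28.3% of all genes, but only Hoxaas2 and Haglr had enough counts to be tested among hemi-sections alone, so for the other 7 the call is no support. Hotairm1, at the low-numbered end of Hoxa, had 0.77 ± 0.92 TPM in hemi-sections and 5.86 ± 2.45 TPM in cord (SD, n = 24 here and below), 13.1% of the cord level. Hoxa11os and Hotair, at the tail end of Hoxa and Hoxc, were at 0 in all 24 hemi-sections and at 3.55 ± 0.86 and 2.33 ± 0.63 TPM in cord. Hottip, beyond Hoxa13, was at 0.0246 TPM in cord. Hoxd3os1, beside Hoxd3, had 10.8 TPM in cord and 0.434% of that in hemi-sections, where Hoxd3 had 18.3%. Overlapping RNAs on opposite strands may share reads, since the sources used here do not state that counting used strand.

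Genes beside the clusters differed less between the tissues. Of 13 flanking genes, 12 were tested in C57BL/6J, 5 were called higher and 4 lower in cord by edgeR, beside 56.9% of all genes called in either direction. Skap2, beyond the low-numbered end of Hoxa, had 27.6 TPM in cord and 43.5% of that in hemi-sections. Mtx2, next to Hoxd1, had 24.7 TPM in hemi-sections and 28.4 TPM in cord, and Lnpk, beyond the high-numbered end of Hoxd, had 37.7 and 34.7 TPM. Evx1 and Evx2, homeobox genes beside Hoxa13 and Hoxd13, had 0.705 and 0.407 TPM in cord. The largest log2 fold change of cord over brain among flanking genes was 1.85 for Evx1 (SE 0.38).

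The TALE cofactors, homeodomain proteins of the Pbx, Meis and Pknox families that bind DNA together with Hox proteins, were expressed in all tissues. In C57BL/6J 4 of 9 were called higher in cord and 3 lower by edgeR, beside 56.9% of all genes called. Meis2 had 94.9 TPM in hemi-sections and 44.1 TPM in cord (log2 fold change -0.99, SE 0.05). Pknox1 was higher in cord at 0.48 (SE 0.07). Between the strains, Meis1 (-0.26) and Meis2 (-0.49) were among those called lower in DBA/1J cord, where 21.3% of all genes were called, and none of the 9 was called for any Rorb allele.

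Of 13 regulators, the Polycomb and trithorax genes that keep Hox clusters silent or open together with Cdx1, Cdx2, Cdx4 and Gdf11, 10 were tested in C57BL/6J, with 2 called higher and 5 lower in cord by edgeR, beside 56.9% of all genes called. Cdx2 was at 0 TPM in both tissues, and Cdx1 and Cdx4 had means of 0.0033 and 0.0038 TPM in cord. Gdf11, a signal for the trunk-to-tail switch of Hox use in the embryo, was higher in cord (log2 fold change 0.57, SE 0.06), and Pcgf2, a Polycomb gene, was lower (-0.65, SE 0.08). No regulator was called for an allele or between the wild-type strains.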

How the data were processed

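Poly(A)-selected RNA of brain hemi-section, spinal cord, cortex, hippocampus and cerebellum was sequenced, so RNAs without a poly(A) tail are under-represented, and 1 table per library was used. Per the labels and methods, the authors trimmed reads with Trim Galore, aligned them to GRCm38 and estimated expression with RSEM; the annotation release is not given in the sources used here, and reads of DBA/1J mice met a C57BL/6J reference. The authors deposited expected counts (estimated counts, 5.07% of them not whole) and TPM for each gene. Identifiers were matched to symbols through a name table (41407 of 45706).

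Levels are deposited TPM with SD over mice. Expected counts were rounded and tested with edgeR 4.0.16 (R 4.3.3; filterByExpr, TMM, quasi-likelihood), with p-values adjusted over all genes tested and called under 0.05. Libraries of a group came from separate mice. Brain and cord with the same number came from 1 animal (correlation of their deviations 0.050 to 0.402). The block of animal changed no count of Hox genes called between cord and brain. DESeq2 1.42.0, the other filters, sex as a covariate and leaving out each replicate were alternatives, and the test was tried on simulated counts. Named in full were the highest and lowest member of each cluster by mean cord TPM, members of at least 0.1 TPM on average in a dissected region, and every member called for an allele or strain; other members named were chosen after their values were seen. The members and gene lists were chosen with earlier results of these data known. Results for 1 member and 1 gene of the cofactor list are not reported here.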

Additional observations from a re-analysis of the deposited data

Results flagged for a closer look

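Groups of 4 libraries were searched for a Hox gene with 1 library far from the other 3 (Dixon's ratio of gap to range), and 8 of 93 groups passed, where chance passes about 1 in 20 for values that vary freely. That rate does not hold for 4 of the 8 (Hoxb1 and Hoxc8 in H2/H2, Hoxb1 and Hoxd12 in H3/H3), where the other 3 libraries were all at 0 and a single count is enough. In H2/H2 hemi-sections the library apart held 0.02 TPM of Hoxb1, and in the same group 1 library held 0.11 TPM of Hoxc8. In H3/H3 hemi-sections the libraries apart held 0.02 TPM of Hoxa7, 0.03 TPM of Hoxb1 and 0.20 TPM of Hoxc8. In H4/H4 hemi-sections 1 library held 1.43 TPM of Hoxa7. In H3/H3 cords 1 library held 0.10 TPM of Hoxd12 and 1 held 35.4 TPM of Hoxb5.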

How the results depend on the processing

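Between cord and brain, all 76 alternative fits of the 7 genotypes called 33 to 37 Hox genes, none lower in cord. Of 162 alternative fits of mutants against controls, 161 called 0, and leaving out 1 library each gave 0 to 1 in H4/H4 cord. Without the low-count filter, 1 gene was called between cerebellum and cortex of DBA/1J, 3 between cerebellum and hippocampus of DBA/1J (1 by DESeq2) and 2 between cerebellum and cortex of H5/H5. For any allele in cord, DESeq2 called 2, one fit of all groups called 0 (Hoxc13 adjusted p = 0.800 by edgeR), and leaving out 1 library gave 0 to 2, with Hoxc13 at 0.019 to 0.095. For the strains in brain, sex as a covariate gave 2 and leaving out 1 library 0 to 1. In cord no filter gave 4, sex as a covariate 4 and leaving out 1 library 1 to 3. For strain by tissue no filter gave 1 and leaving out 1 library 0 to 1. The shares of all genes called in these alternative fits are not given here, so the counts alone are no result about Hox genes. In the main fits 4.53% of all genes were called for any allele in cord and 0.321% for strain by tissue. Between the strains the main fits called 11.2% in brain and 21.3% in cord.

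With the replicate number as a block, the strains differed in 0 Hox genes in brain, with Hoxb5 at a log2 fold change of 0.63 in brain (adjusted p = 0.0799, edgeR) and 0.19 in cord. These mice share only a number. Leaving out 1 library gave Hoxb5 0.52 to 0.72 in brain and 0.17 to 0.20 in cord. Counting a gene as present at a mean of 1 TPM gave 8 genes in brain, 0 in hippocampus and 0 in cerebellum. Requiring counts in every library gave 13 in brain and 0 in hippocampus, and a mean of 0.05 TPM gave 6 in cerebellum. The cause of these changes was not tested. In the dissected regions no member passed edgeR's default count filter.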
